A study of Homo sapiens with 18 samples.

Results

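Poly-A RNA of HEK293T cells, an easily transfected human embryonic kidney line of wild-type genotype, was compared after Vps34-IN1 and after its vehicle DMSO in cells that expressed a nuclear methionase. Both groups had been transfected for 24 h with MethionaseNLS, a methionase (an enzyme that breaks down methionine) carrying a nuclear localisation signal, and the drug group had received 5 µM Vps34-IN1 for 12 h. The comparison rests on all 6 libraries of these groups, 3 per group, of 18 in the series, chosen by their labels alone. The most similar comparison, the same drug and dose against DMSO at 24 h in cells transfected with the empty vector pLEX, has 6 other libraries and is used below only to show where the drug differences in methionase cells were unlike it. No group received an inactive methionase, so the activity of the enzyme cannot be told apart from the presence of a foreign nuclear protein. The labels give transient transfection with no measure of how many cells took up the construct. They do not say how long DMSO was given, nor that the 3 replicates were separate cultures, so each p-value reflects only how much these samples vary, and that variation may be technical.

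VPS34, encoded by PIK3C3, is the lipid kinase of the class 3 PI3K complexes and makes phosphatidylinositol 3-phosphate on endosomes and on forming autophagosomes. It works with the scaffold VPS15 (PIK3R4) and Beclin 1 (BECN1), joined by ATG14 in the complex that starts autophagy or by UVRAG in the complex that acts on endosomes. The lipid recruits proteins that mature endosomes, feed cargo to lysosomes and build autophagosomes, through which cells recover amino acids and cholesterol. Methionine feeds the methyl donor S-adenosylmethionine and the polyamines, so a methionase takes away a nutrient while a VPS34 inhibitor blocks a route by which nutrients are recovered.

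Total reads assigned to genes lay between 18278586 and 19031459 in the 6 libraries. Markers of HEK293 lines were present in all 6, PAX2 at 146.3 to 190.3 normalised reads (reads divided by the library's size factor) and LIN28B at 1458 to 1891. Of 12 markers of other cell types 10 were in the table, and their summed level was 674.1 to 840.5 in DMSO and 592.8 to 741.3 with the drug. CD3E, CDH5, DCN and MYH7 had at most about 1 read in any library, whereas COL1A1 had 443.8 to 671.6, CD68 61.94 to 96.24 and GFAP 28.71 to 53.9. On the deposited log2 scale, libraries of the same group lay 0.174 to 0.19 (DMSO) and 0.182 to 0.217 (drug) apart as root mean square, and libraries of different groups 0.201 to 0.259. In vector cells the DMSO and drug libraries lay 0.312 to 0.343 apart. Vector libraries of the same group lay 0.118 to 0.163 (DMSO) and 0.124 to 0.175 (drug) apart, so the methionase groups were the more spread.

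Vps34-IN1 changed 1408 of 17755 genes tested in methionase cells (7.93%), 523 higher (2.95%) and 885 lower (4.98%). The test was limma on the deposited log2 values with Benjamini-Hochberg adjustment, and a gene was called, and is said to have risen or fallen, at an adjusted p below 0.05. Most changes were small. The median absolute log2 difference of called genes was 0.318, and only 17 called genes rose and 3 fell by at least 1 on the log2 scale. The 3 drug libraries did not overlap the 3 DMSO libraries in 3475 of all genes tested (19.57%) and in 1292 of the 1408 called. The split between directions depended on scaling, since equal library medians gave 899 higher and 605 lower in place of 523 and 885. The fit of all 18 libraries gives every group the same spread, which can understate that of the methionase groups. The number of calls depended on which libraries set the spread. It was 296 when only the 6 libraries were fitted, of which 294 were also called in the fit of all 18. It was 860 without DMSO replicate 3. Of 159 called genes named below, 58 kept their call under all 15 other settings tried and 3 (H3C4, H1-3 and H1-12P) under the 14 in which they could be tested, and the number of settings under which a call ended is given for most of the rest. In these bulk libraries a change in the number of cells that express a gene and a change in RNA per cell cannot be told apart.

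In vector cells the same drug changed 7122 genes (40.1%), 3595 higher (20.2%) and 3527 lower (19.9%). This count rose to 7740 with only the groups compared and to 9300 with array quality weights. The methionase count fell to 296 and 625 under these settings. The 2 shares of called genes thus rest on a common spread although the groups varied unequally. The drug differences of the 2 kinds of cell differed from each other at 3878 genes (21.8%, the test of the difference itself), more positive in methionase cells at 1761 (9.92%) and more negative at 2117 (11.9%). Of the 523 genes that rose in methionase cells, 267 also rose in vector cells (51.05% of the methionase list and 7.427% of the vector list), 43 fell there and 213 were not called there. Of the 885 that fell, 433 also fell in vector cells (48.93% and 12.28% of the lists), 130 rose there and 322 were not called. Across all genes tested the drug differences correlated with a Pearson coefficient of 0.343 and a Spearman coefficient of 0.263. Genes are not independent replicates, and these coefficients only describe the tables.

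**Figure D1:**
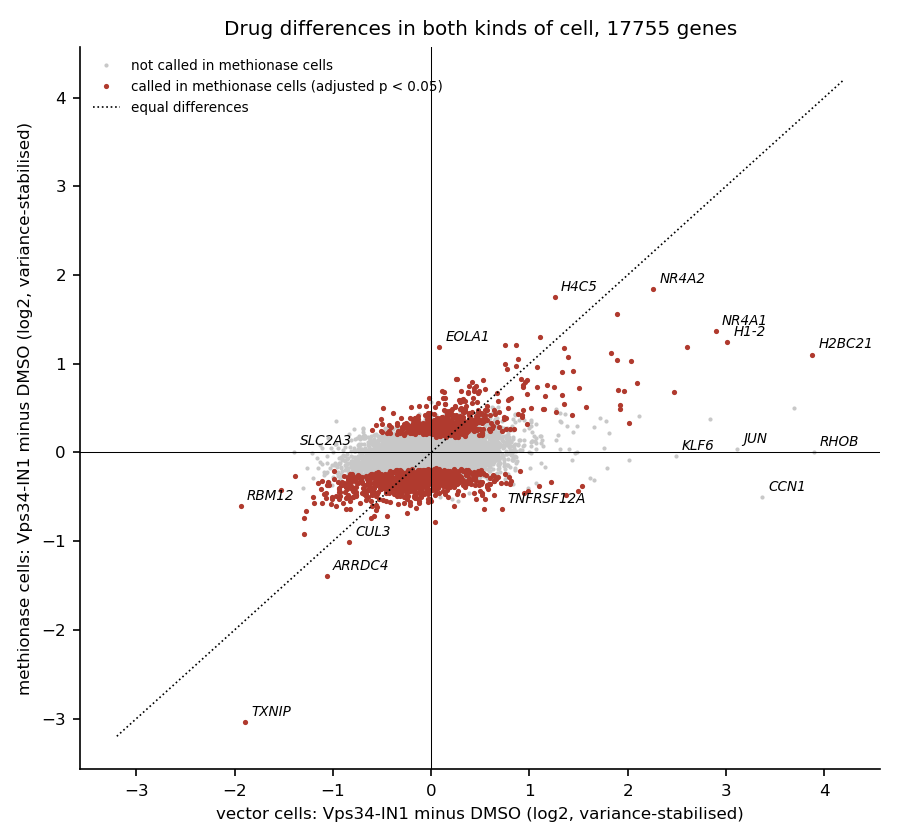
Drug difference in methionase cells (vertical axis, log2 on the variance-stabilised scale) against that in vector cells (horizontal axis) for 17755 genes, with red points for the 1408 called in methionase cells and a dotted line where both differences are equal. TXNIP and ARRDC4 lie low in both kinds of cell and the NR4A genes high in both, while RHOB, JUN and KLF6 lie far to the right near 0 on the vertical axis.

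The strongest decrease was in the arrestin family that reports the glucose supply. TXNIP, an alpha-arrestin that drives glucose transporters off the cell surface, had 844, 1576 and 2175 normalised reads in the 3 DMSO libraries and 121, 101 and 102 in the drug libraries. All 3 drug libraries lay far below the lowest DMSO library, and the DMSO libraries differed from each other by more than the drug libraries did. TXNIP fell 14.18-fold in mean reads, a log2 difference of -3.04 ± 0.21 (SE, limma adjusted p = 3.65e-09). ARRDC4, its closest relative in function, had 663, 792 and 967 reads in DMSO and 261, 285 and 218 with the drug, groups that did not overlap, and fell by 1.40 ± 0.11. The transcripts differed in how the vector cells compared. TXNIP fell less there (-1.90 ± 0.21), and the difference of -1.14 ± 0.30 was called (adjusted p = 0.0084), whereas ARRDC4 fell by 1.06 ± 0.11 in vector cells and the difference of -0.34 ± 0.15 was not called (adjusted p = 0.125).

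Another member moved the other way. ARRDC3, an arrestin that regulates adrenergic receptors and cell growth, had 264, 258 and 201 reads in DMSO and 268, 433 and 640 with the drug. The drug libraries were spread widely and the lowest lay just above the highest DMSO library. ARRDC3 rose by 0.66 ± 0.16 (adjusted p = 0.00976), but its call ended without drug replicate 3 (log2 0.41, adjusted p = 0.0561), without DMSO replicate 3 (adjusted p = 0.0609) and when only the 6 libraries were fitted (adjusted p = 0.0676). The other family members had log2 differences of 0.06 ± 0.08 (ARRDC1) and -0.26 ± 0.09 (ARRDC2, adjusted p = 0.0752). MondoA (MLXIP) and ChREBP (MLXIPL), the glucose-sensing transcription factors that act on TXNIP and ARRDC4, and their partner MLX were not called, at -0.04 ± 0.07, 0.15 ± 0.10 and 0.13 ± 0.06. Of the 8 tested members of this list 1 rose and 2 fell, with a median log2 difference of 0.01 against -0.003 over all genes.

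The sequences upstream of the genes that fell furthest are shown because MondoA and ChREBP are known to bind pairs of E-boxes. They are from RefSeq on GRCh38.p14, 5′ to 3′ on the gene's strand, and end before the transcription start. TXNIP lies on chromosome 1 from 145992435 to 145996579 and ARRDC4 on chromosome 15 from 97960703 to 97973833. In the TXNIP stretch (chr1:145996619-145996749, minus strand) the capitals mark a pair of E-box-like hexamers 5 bases apart, the first base 88 bases before the start. In the ARRDC4 stretch (chr15:97960453-97960573, plus strand) they mark a single E-box, 210 bases before the start.
TXNIP: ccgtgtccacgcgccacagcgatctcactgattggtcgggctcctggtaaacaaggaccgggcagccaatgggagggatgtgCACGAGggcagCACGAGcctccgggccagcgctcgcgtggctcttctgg
ARRDC4: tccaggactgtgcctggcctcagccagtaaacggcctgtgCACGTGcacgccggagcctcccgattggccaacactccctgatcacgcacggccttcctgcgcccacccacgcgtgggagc
The paired form, searched as CACGNG, any 5 bases and CACGNG on both strands of the 250 bases before the start, was chosen after the TXNIP sequence had been read. It occurred in 13 of 12911 tested genes with a RefSeq promoter (0.101%), among them 3 genes that fell (TXNIP, GFPT1 and AKAP10, 0.421% of 712) and none of 361 that rose. The single E-box CACGTG, a palindrome, occurred in 8.5% of all promoters, 10.5% of those that rose and 10.3% of those that fell. A match describes letters and not a bound site.

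**Figure D2:**
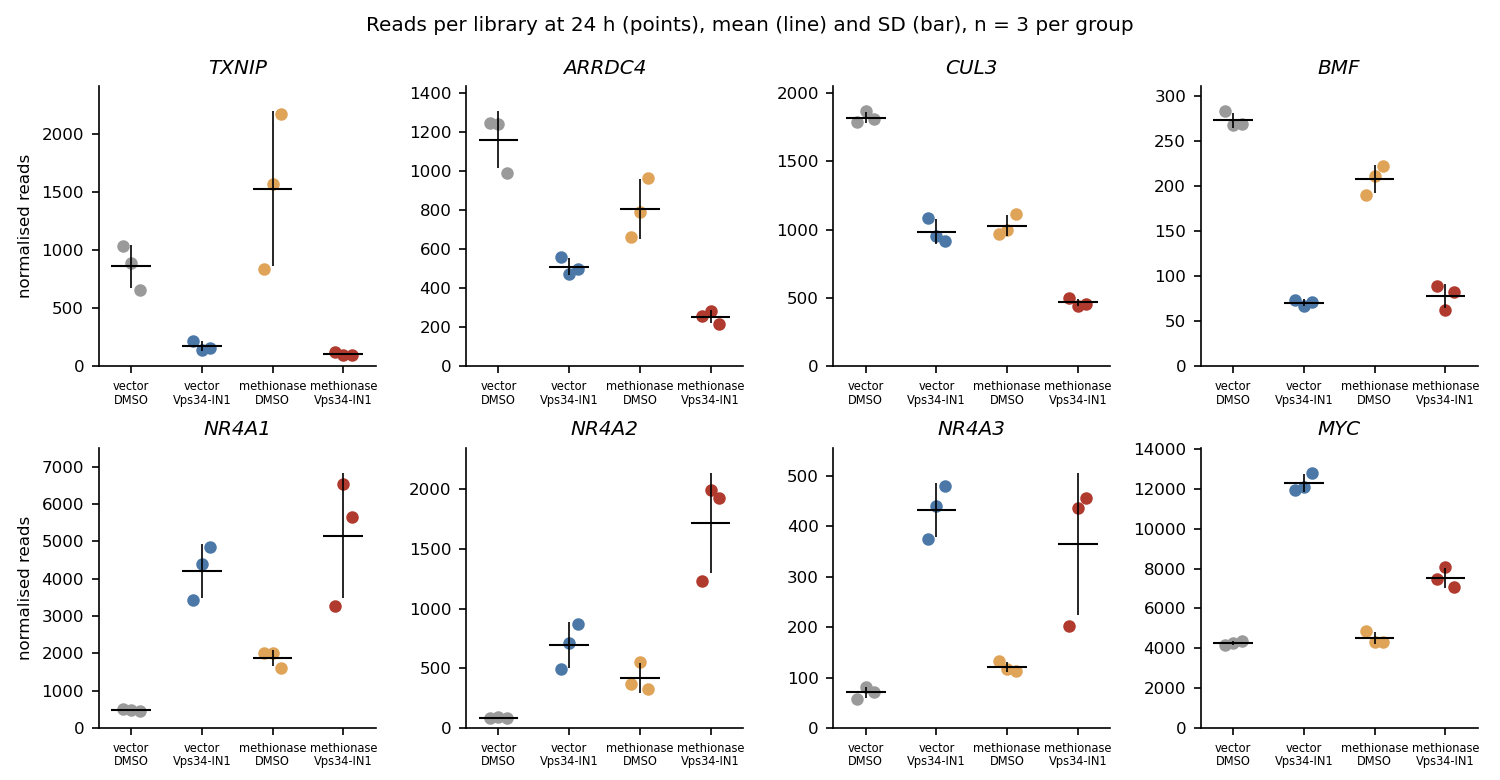
Normalised reads (vertical axes, linear from 0) of 8 genes in the 12 libraries of 24 h, with points for libraries, lines for means and bars for SD (n = 3 per group). In methionase cells TXNIP, ARRDC4, CUL3 and BMF are lower in each drug library than in any DMSO library, and NR4A1, NR4A2, NR4A3 and MYC are higher in each.

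All 3 NR4A genes rose. They encode orphan nuclear receptors that are induced within the hour by growth factors, calcium and cyclic AMP and act without a known natural ligand. NR4A2 had 372, 556 and 325 reads in DMSO and 1231, 1991 and 1924 with the drug, and rose by 1.84 ± 0.16 (4.106-fold in mean reads, adjusted p = 1.29e-07). NR4A1 had 1994, 1999 and 1611 reads in DMSO and 3275, 6525 and 5649 with the drug, and rose by 1.37 ± 0.16. NR4A3 had 133, 117 and 113 reads in DMSO and 203, 437 and 456 with the drug, and rose by 1.12 ± 0.15. In none of the 3 genes did the groups overlap, and in each of them drug replicate 1 was the lowest drug library. Their calls were kept under all 15 other settings.

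The rise in methionase cells started from a higher level than in vector cells. NR4A1 had a mean of 488.9 reads in vector DMSO, 4213 in vector drug, 1868 in methionase DMSO and 5150 in methionase drug libraries. Its drug difference was smaller in methionase than in vector cells (-1.52 ± 0.22, adjusted p = 3.33e-05). For NR4A3 the drug difference was smaller too (-0.72 ± 0.22, adjusted p = 0.0184), a call that ended without vector DMSO replicate 1 (adjusted p = 0.0542), without vector drug replicate 3 (adjusted p = 0.0518), with no filter (0.0507) and after quantile normalization (0.061). For NR4A2 the difference of -0.41 ± 0.23 was not called (adjusted p = 0.207). NR4A genes are textbook targets of CREB, which binds the letters TGACGT. These letters were not in the 250 bases before either of the 2 starts listed for NR4A1, and NR4A2 was not matched to a promoter. The stretch before NR4A3 (chr9:99821755-99821884, plus strand, GRCh38.p14) holds it 3 times, in capitals, at 109, 83 and 25 bases before the start.
NR4A3: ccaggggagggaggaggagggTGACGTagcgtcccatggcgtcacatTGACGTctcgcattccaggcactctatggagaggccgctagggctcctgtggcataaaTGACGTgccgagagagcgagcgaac
On either strand of the 250 bases before the start, TGACGT occurred in 14.7% of 361 promoters of genes that rose. It occurred in 9.27% of 712 of genes that fell and 10.1% of all 12911. Once histone genes were set aside, 13.2% of 333 promoters of genes that rose held it. The 14 genes of the list of CREB, CRTC and cyclic AMP targets held 2 that rose, NR4A1 and SIK3 (0.27 ± 0.07, a call that ended under 5 of the 15 settings, with an adjusted p of up to 0.0764 with 1 library left out), none that fell, and a median of 0.09. Without drug replicate 1, 4 of them rose. The called share of this list was 14.29%, beside 7.93% of all genes.

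Most of the replication-dependent histone genes that were tested rose. They encode the core and linker histones made in S phase, and their messages usually end in a stem-loop in place of a poly-A tail, so poly-A libraries catch only the share that is polyadenylated. Of 62 genes listed 58 were in the table and 34 passed the filter on low values, and of these 28 rose and none fell (82.35% called, against 7.93% of all genes), with a median log2 difference of 0.74. Leaving out any 1 of the 6 libraries kept between 23 and 28 rising and none falling. Of the 24 genes below the filter, 21 had a higher mean with the drug, 2 had no read in any of the 6 libraries, and the highest group mean was 25.08 reads. Many histone genes are close copies, so reads may have been divided among them and single members are less certain than the group.

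H1-2, a linker histone, had 3453, 3615 and 2414 reads in DMSO and 6544, 7686 and 8322 with the drug, and rose by 1.24 ± 0.13. H2BC12 had 2851, 2966 and 2626 reads in DMSO and 5558, 5734 and 4923 with the drug, and rose by 0.92 ± 0.07 (adjusted p = 3.98e-09). H4C5 had 129, 154 and 73 reads in DMSO and 708, 528 and 476 with the drug, and rose by 1.75 ± 0.16. In these 3 genes every drug library lay well above every DMSO library. H2BC21, the most abundant in reads, rose from 6626 ± 2337 to 13720 ± 1795 (SD, n = 3), and its DMSO libraries ranged from 3989 to 8442. Further increases were 1.30 ± 0.19 for H2BC18, 1.21 ± 0.16 for H3C4, 1.19 ± 0.12 for H2AC6, 1.08 ± 0.13 for H2BC4, 1.05 ± 0.13 for H1-3, 1.04 ± 0.14 for H2BC11 and 1.03 ± 0.09 for H2BC5. The linker histone pseudogene H1-12P and the H2A and H2B genes H2AW and H2BU1, outside the list, rose as well, by 1.21 ± 0.12, 1.17 ± 0.16 and 1.56 ± 0.23. Replacement histones, which are made throughout the cell cycle from ordinary polyadenylated messages, did not share this: 1 of 11 was called, the centromere histone CENPA at -0.24 ± 0.07, a call that ended under 8 of the 15 settings with an adjusted p of up to 0.158 with 1 library left out.

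The share of all reads on the 58 histone genes was 0.0865%, 0.0952% and 0.0619% in the DMSO libraries and 0.175%, 0.174% and 0.159% in the drug libraries. The groups did not overlap and the mean rose 2.084-fold, with an exact two-sided permutation p of 0.1, the smallest that 3 libraries against 3 can give. In vector cells the means were 0.0164% in DMSO and 0.0776% with the drug, so methionase cells in DMSO already stood near the drug-treated vector cells. In vector cells 30 of the 34 tested members rose (median 0.87), beside 20.2% of all genes. In 10 the drug difference was called smaller in methionase cells, beside 11.9% called more negative among all genes. In none was it called larger, beside 9.92% of all genes. Examples were differences of -2.78 ± 0.23 in H2BC21, -1.77 ± 0.18 in H1-2, -1.42 ± 0.17 in H2AC6, -0.99 ± 0.13 in H2BC5, -0.85 ± 0.19 in H2BC11 and -0.52 ± 0.09 in H2BC12. H4C5 rose by 1.26 ± 0.16 in vector cells, and the difference of 0.49 ± 0.23 was not called (adjusted p = 0.13). The other RNAs that usually lack long poly-A tails moved with them, mitochondrial ribosomal RNA from 1.487% ± 0.536 to 2.178% ± 0.288 of reads (SD, n = 3, exact permutation p = 0.2), and their part in the histone result was not tested. The groups overlapped, with 0.9379%, 2.008% and 1.516% in DMSO and 2.469%, 1.894% and 2.17% with the drug. The difference of 0.6903 percentage points was 0.4155 without DMSO replicate 1, the lowest library, and 0.9506 without DMSO replicate 2. Small nucleolar and Cajal body RNAs, a class picked by symbol after values were seen, had 43 of 156 tested members higher (27.56%, beside 2.95% of all genes) and none lower, with a median of 0.29. In vector cells 54 of them were higher (34.62%, beside 20.2% of all genes) and none lower, with a median of 0.21.

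**Figure D3:**
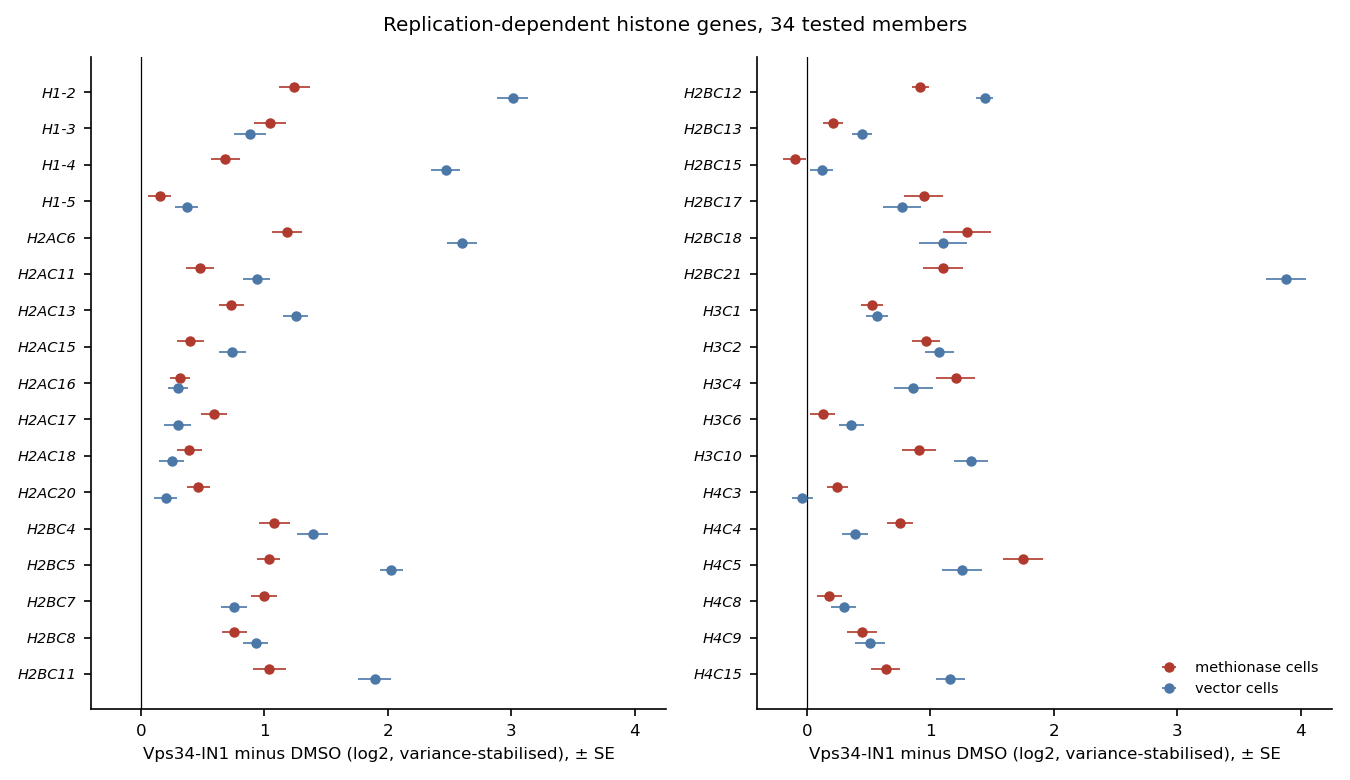
Drug difference (horizontal axes, log2 on the variance-stabilised scale) ± SE of the 34 tested replication-dependent histone genes in methionase cells (red) and vector cells (blue). In methionase cells 33 of the 34 lie above 0, and H2BC21, H1-2, H1-4 and H2AC6 lie much further right in vector cells.

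Stretches upstream of 3 H2B genes that rose are shown for the octamer ATTTGCAT, the site through which OCT1 is known to drive H2B genes in S phase (capitals; RefSeq, GRCh38.p14, chromosome 6, minus strand, H2BC12 at chr6:27146879-27146978, H2BC11 at chr6:27132816-27132915 and H2BC4 at chr6:26123987-26124086).
H2BC12: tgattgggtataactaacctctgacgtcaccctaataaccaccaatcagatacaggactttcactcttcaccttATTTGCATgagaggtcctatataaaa
H2BC11: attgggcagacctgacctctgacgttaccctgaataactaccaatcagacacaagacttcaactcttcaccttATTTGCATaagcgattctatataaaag
H2BC4: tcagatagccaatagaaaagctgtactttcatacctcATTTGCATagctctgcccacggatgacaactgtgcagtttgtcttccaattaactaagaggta
The octamer was searched on both strands, as ATTTGCAT or ATGCAAAT, in the 250 bases before the start. It occurred before 8 of 11 tested H2B genes (72.7%), 14 of 33 tested histone genes with a promoter in the table (42.4%) and 1.35% of all 12911 promoters. Among genes that rose it occurred in 5.26%, but in 1.5% once the histone genes were set aside, and in 1.83% of those that fell.

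CUL3, BMF, DEPP1 and TNFRSF12A were among the 15 largest decreases. CUL3, the scaffold of the ubiquitin ligase that KEAP1 uses to destroy NRF2, had 971, 1001 and 1115 reads in DMSO and 499, 444 and 460 with the drug, groups far apart, and fell by 1.01 ± 0.07 (adjusted p = 9.41e-10). It fell by 0.84 ± 0.07 in vector cells, and the difference of -0.18 ± 0.09 was not called (adjusted p = 0.177). BMF, a BH3-only activator of cell death, had 190, 210 and 221 reads in DMSO and 89, 63 and 83 with the drug, and fell by 0.92 ± 0.09. DEPP1, a FOXO-induced gene, had 427, 434 and 477 reads in DMSO and 263, 240 and 184 with the drug, and fell by 0.78 ± 0.10. Its vector drug difference was 0.04 ± 0.10, and the 2 differed by -0.82 ± 0.14 (adjusted p = 0.000131). TNFRSF12A, the receptor for the cytokine TWEAK, fell from 347.9 ± 39.9 to 197.3 ± 37.2 reads (SD, n = 3; log2 -0.64 ± 0.12) but rose in vector cells by 0.72 ± 0.12, a difference of -1.36 ± 0.16 (adjusted p = 3.43e-06). Both DEPP1 and TNFRSF12A overlap a gene on the other strand in GENCODE v29 (RASSF4 and CLDN6), and whether reads were counted by strand is not given in the sources used here. By the same annotation, FOSB (ERCC1), MTRFR (MPHOSPH9), CUL3 (AC073052.2), BMF (BMF-AS1), FADD (AP000879.1), NR4A1 (AC025259.3), ARRDC3 (ARRDC3-AS1), CDKN1A (DINOL) and H2BC5 (AL353759.1) overlap a gene on the other strand, and EGLN3 overlaps EGLN3-AS1 there and SPTSSA on its own strand. Reads of all these genes are uncertain to that extent.

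The further members of the 15 largest decreases were KLF10, a transcription repressor induced by TGF-beta (-0.74 ± 0.13), the FERM-domain gene FRMD1 (-0.74 ± 0.15), the splicing factor TRA2B (-0.72 ± 0.07), the protocadherin PCDH18 (-0.72 ± 0.11), the mitochondrial translation release factor MTRFR (-0.68 ± 0.08), the prolyl hydroxylase EGLN3 (-0.66 ± 0.13), the death receptor adaptor FADD (-0.65 ± 0.10) and the ephrins EFNA3 (-0.64 ± 0.12) and EFNA2 (-0.64 ± 0.12). Each kept its call under all 15 other settings. TRA2B had 3168, 3216 and 3391 reads in DMSO and 2139, 1884 and 1828 with the drug, groups that lay far apart. MTRFR fell more than in vector cells, by -0.43 ± 0.11 (adjusted p = 0.00701). For TRA2B the difference of -0.27 ± 0.10 just missed the threshold (adjusted p = 0.054).

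One large increase had no counterpart in vector cells. EOLA1, an X-linked gene for a small ASCH-domain protein (chromosome X from 149540601 to 149555345), had 640, 677 and 701 reads in DMSO and 1294, 1681 and 2009 with the drug, and rose by 1.19 ± 0.15. Its vector libraries stood at 1362 reads in DMSO and 1450 with the drug on average, a drug difference of 0.08 ± 0.15, and the 2 differed by 1.11 ± 0.21 (adjusted p = 0.000491). Methionase cells in DMSO were thus the group with low EOLA1, and the drug libraries lay at the level of both vector groups. EOLA2, a near-identical copy on the same chromosome that was looked at after these values were seen, rose in both kinds of cell, by 0.57 ± 0.05 and 0.47 ± 0.05 (difference 0.10 ± 0.08, adjusted p = 0.359). Reads may have been divided between the copies, and both overlap genes on the other strand.

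Among the genes of the drug's own target, PIK3C3 had 419, 419 and 399 reads in DMSO and 437, 430 and 408 with the drug, overlapping groups with a log2 difference of 0.04 ± 0.06. In vector cells PIK3C3 fell by 0.42 ± 0.06, and the difference of 0.46 ± 0.09 was called (adjusted p = 0.000579). PIK3R4, the VPS15 scaffold, had 719, 694 and 696 reads in DMSO and 511, 502 and 544 with the drug. These groups lay far apart, and PIK3R4 fell by 0.39 ± 0.06 (adjusted p = 0.000137), unlike in vector cells (-0.04 ± 0.06, difference -0.35 ± 0.08, adjusted p = 0.00309). NRBF2, a subunit of the ATG14 complex, fell by 0.24 ± 0.07 with an adjusted p of 0.0486 and lost its call under 13 of the 15 settings, with an adjusted p of up to 0.191 with 1 library left out. BECN1 (0.13 ± 0.07), ATG14 (-0.11 ± 0.07), UVRAG (0.09 ± 0.07), the inhibitor Rubicon RUBCN (0.00 ± 0.08), its relative RUBCNL (0.11 ± 0.08) and the Beclin partner AMBRA1 (0.05 ± 0.07) were not called. ATG14, UVRAG, RUBCN and AMBRA1 rose with the drug in vector cells, and the tests of the difference were called at -0.44 ± 0.10, -0.43 ± 0.10, -0.44 ± 0.12 and -0.35 ± 0.10. Of the 9 members of these complexes none rose and 2 fell (22.22% called, beside 7.93% of all genes), with a median of 0.04. Without any 1 of the libraries other than drug replicate 3, 1 fell.

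Of 39 other phosphoinositide kinases and phosphatases 1 rose and 5 fell (15.38% called, beside 7.93% of all genes), with a median of -0.06. PIKFYVE, which turns the VPS34 product into the next lipid on endosomes, fell by 0.33 ± 0.07. The class 1 PI3K genes PIK3R1, PIK3CA and PIK3CB fell by 0.35 ± 0.07, 0.34 ± 0.08 and 0.34 ± 0.08. PIK3CA rose in vector cells by 0.37 ± 0.08, a difference of -0.71 ± 0.11 (adjusted p = 8.49e-05). Fitted with the 6 libraries alone, PIKFYVE, PIK3R1, PIK3CA and PIK3CB had adjusted p of 0.0784, 0.0972, 0.125 and 0.0762, and PIK3CA had 0.0587 without drug replicate 2. The lipid kinase gene PIP5K1A (-0.21 ± 0.06) and the phosphatase gene INPPL1 (0.17 ± 0.05), the only one that rose, lost their calls under 10 and 11 of the 15 settings, with an adjusted p of up to 0.128 and 0.113 with 1 library left out. Without drug replicate 3, 3 genes of this list rose.

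Autophagy genes of the core machinery were called in a share near that of all genes (6.061% beside 7.93%). Of 33 tested genes of the core machinery none rose and 2 fell, ATG101 of the ULK complex (-0.34 ± 0.08) and the kinase ULK2 (-0.27 ± 0.08), with a median of -0.07, and none of 19 selective autophagy receptors was called (median -0.06). ATG101 lost its call with array quality weights (adjusted p = 0.0513) and with the 6 libraries alone (adjusted p = 0.107). ULK2 lost its call under 6 of the 15 settings, among them without DMSO replicate 3 (adjusted p = 0.155) and without drug replicate 3 (adjusted p = 0.137, log2 -0.17). Without drug replicate 1, 6 core genes fell, and 3 fell without DMSO replicate 1 or DMSO replicate 2. In vector cells 6 core genes rose and 5 fell, beside 20.2% higher and 19.9% lower among all genes.

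Single endosomal and lysosomal genes rose clearly within groups that as a whole stayed near 0. CHMP1B, an ESCRT-III subunit that cuts membranes on endosomes, had 767, 802 and 737 reads in DMSO and 965, 1484 and 1957 with the drug. The drug libraries were widely spread but all above DMSO, and CHMP1B rose by 0.81 ± 0.13 (adjusted p = 0.000415), much as in vector cells (0.97 ± 0.13, difference -0.16 ± 0.19, adjusted p = 0.593). GLA, the lysosomal alpha-galactosidase A, had 6371, 6351 and 5568 reads in DMSO and 8355, 11215 and 11905 with the drug, and rose by 0.76 ± 0.09 (adjusted p = 9.49e-06), less than in vector cells by -0.42 ± 0.13 (adjusted p = 0.0213, a call that ended under 6 of 21 settings, with an adjusted p of up to 0.0652). CHMP1B and GLA both overlap genes on the other strand (CHMP1B-AS1 and RPL36A-HNRNPH2), and CHMP1B lies within GNAL. Among 47 genes of endosomal RABs, retromer and ESCRT, 3 rose and 4 fell (14.89% called, beside 7.93% of all genes, median 0.02). Without DMSO replicate 1 or drug replicate 1, 2 of the list fell. The other 2 that rose were HGS, which sorts ubiquitinated cargo (0.27 ± 0.06, adjusted p = 0.134 with the 6 libraries alone), and SNF8 of ESCRT-II (0.20 ± 0.06, lost under 9 settings). RAB5B, a GTPase of early endosomes, fell by 0.33 ± 0.06 (adjusted p = 0.0708 with the 6 libraries alone). The tethering subunit VPS18, VPS37B and SNX27 had -0.39 ± 0.10, -0.25 ± 0.08 and -0.19 ± 0.06, with calls lost under 4, 10 and 11 settings and an adjusted p of up to 0.128, 0.175 and 0.185 with 1 library left out.

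Of 49 tested lysosomal hydrolases and membrane proteins 3 rose and 2 fell (10.2% called, beside 7.93% of all genes, median 0.02). Without DMSO replicate 3 or drug replicate 2, 1 rose. Besides GLA, the cystine exporter CTNS (0.32 ± 0.09) and the membrane protein LAMP1 (0.21 ± 0.06) rose, but these calls ended under 7 and 8 of the 15 settings, with an adjusted p of up to 0.127 and 0.138 with 1 library left out. The protease gene CTSB fell by 0.28 ± 0.06 and the sialic acid exporter SLC17A5 by 0.34 ± 0.08 (adjusted p = 0.108 and 0.0734 with the 6 libraries alone), and for CTSB the drug difference was lower than in vector cells by -0.41 ± 0.09 (adjusted p = 0.00139). One of 20 subunits of the lysosomal proton pump fell, ATP6V1B2 (-0.36 ± 0.07, adjusted p = 0.0577 with the 6 libraries alone; median of the list -0.01). TFEB, folliculin and the Rag GTPases tell mTORC1 of the nutrient state of the lysosome. Of this list 18.75% was called, beside 7.93% of all genes. Of its 16 tested genes none rose and 3 fell, FNIP2 (-0.33 ± 0.08), RRAGC (-0.27 ± 0.07) and RRAGA (-0.20 ± 0.06). Their calls ended under 3, 4 and 12 settings, each among others without DMSO replicate 3 (adjusted p = 0.0622, 0.107 and 0.213), where none of the list fell.

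Several genes of cholesterol synthesis fell in methionase cells and rose in vector cells. SQLE, which makes squalene epoxide and is a control point of the pathway, had 6519, 7065 and 7153 reads in DMSO and 5048, 5503 and 4290 with the drug, and fell by 0.48 ± 0.07 (adjusted p = 0.000134). In vector cells it rose by 0.64 ± 0.07, and the difference was -1.12 ± 0.10 (adjusted p = 4.70e-08). MSMO1, a sterol demethylase, fell by 0.36 ± 0.06 and rose in vector cells by 0.80 ± 0.06 (difference -1.16 ± 0.09). MSMO1 and SQLE kept their calls under all 15 other settings. Of the next genes, HMGCS1 and INSIG1 are outside the rule by which genes were named and were chosen after their values were seen.

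HMGCS1, an early enzyme of the pathway, fell by 0.43 ± 0.11 with overlapping groups, and rose in vector cells by 0.99 ± 0.11 (difference -1.42 ± 0.15). The call of HMGCS1 in methionase cells ended without DMSO replicate 3 (log2 -0.28, adjusted p = 0.0964) and without drug replicate 3 (adjusted p = 0.0509). INSIG1, which holds the sterol sensor in the ER, had -0.16 ± 0.10 in methionase cells, not called, against a rise of 1.16 ± 0.10 in vector cells (difference -1.32 ± 0.13). IDI1, an isomerase, was the single member that rose (0.33 ± 0.09, a call that ended under 7 of the 15 settings, with an adjusted p of up to 0.153 with 1 library left out), far less than in vector cells (2.01 ± 0.09).

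Of the 28 tested genes of cholesterol synthesis and SREBP control 1 rose and 8 fell (32.14% called, beside 7.93% of all genes, median -0.13). In vector cells 13 rose and 6 fell (median 0.14), beside 20.2% higher and 19.9% lower among all genes. In 14 members the drug difference was called lower in methionase cells, beside 11.9% of all genes, and in 1 higher. Other members that fell were the ubiquitin ligase gene MYLIP (-0.50 ± 0.09), the sterol carrier STARD4 (-0.34 ± 0.08, adjusted p = 0.0909 with the 6 libraries alone) and INSIG2 (-0.29 ± 0.09, lost under 9 settings, with an adjusted p of up to 0.15 with 1 library left out). With 1 library left out, between 5 and 11 members fell, 5 without DMSO replicate 3. None of 6 genes of ABC sterol export and LXR targets was called (median 0.01).

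**Figure D4:**
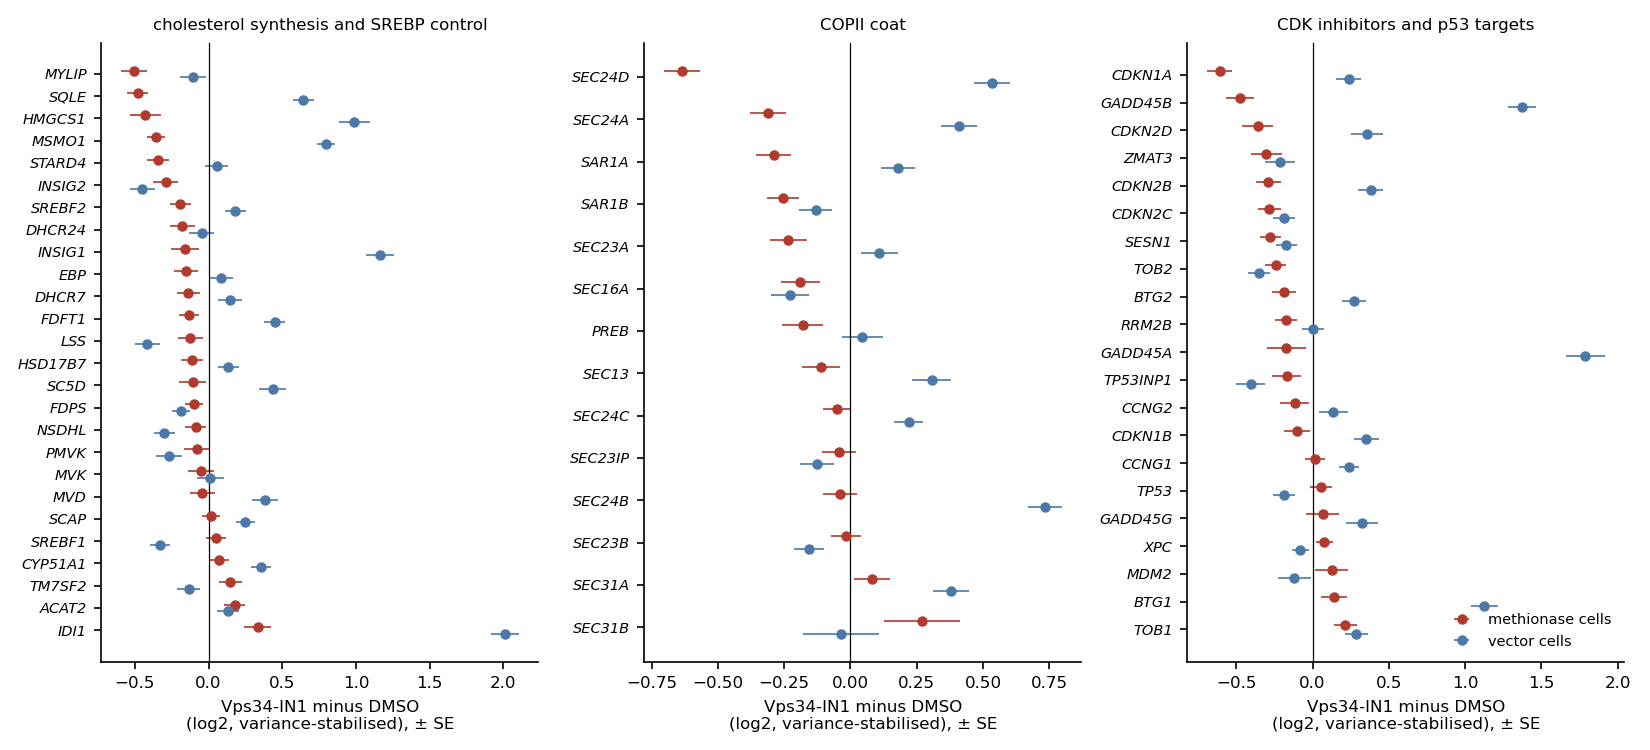
Drug difference (horizontal axes, log2 on the variance-stabilised scale) ± SE of tested genes of 3 lists in methionase cells (red) and vector cells (blue), ordered by the methionase value. SQLE, HMGCS1 and MSMO1, SEC24D and SEC24A, and CDKN1A and GADD45B lie below 0 in methionase cells and above 0 in vector cells.

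Some genes of the COPII coat, which buds vesicles from the endoplasmic reticulum and carries the sterol sensor to the Golgi, also had opposite signs in the 2 kinds of cell. SEC24D, a cargo adaptor of the coat, had 1474, 1341 and 1412 reads in DMSO and 836, 938 and 860 with the drug, groups far apart. It fell by 0.63 ± 0.07 (adjusted p = 1.91e-06) and rose in vector cells by 0.53 ± 0.07, a difference of -1.17 ± 0.10 (adjusted p = 1.31e-08). SEC24A fell by 0.31 ± 0.07 (difference from vector cells -0.72 ± 0.10) and the GTPase SAR1A by 0.29 ± 0.07 (difference -0.47 ± 0.09), with adjusted p of 0.0734 and 0.0962 with the 6 libraries alone. SAR1B and SEC23A fell by 0.25 ± 0.06 and 0.23 ± 0.07, calls that ended under 2 and 10 settings, with an adjusted p of up to 0.0509 and 0.152 with 1 library left out. SEC24B was not called (-0.04 ± 0.06) but rose in vector cells by 0.73 ± 0.06 (difference -0.77 ± 0.09). Of the 14 tested members none rose and 5 fell (median -0.15), 35.71% called beside 7.93% of all genes. In 8 the drug difference was called lower in methionase cells, beside 11.9% of all genes, and in none higher. Only 1 of the 5 calls was kept with the 6 libraries alone, and 3 members fell without DMSO replicate 2.

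The ER stress response, which rose broadly in vector cells, did not move as a group in methionase cells. Of 22 tested sensors and chaperones 1 rose and 2 fell (13.64% called, beside 7.93% of all genes, median -0.08). In vector cells 17 rose and 2 fell (median 0.43), beside 20.2% higher and 19.9% lower among all genes. In 16 members the drug difference was called lower in methionase cells, beside 11.9% of all genes. The chaperone DNAJB9 rose by 0.34 ± 0.09 and the transcription factor CREB3L2 and the disulfide isomerase PDIA4 fell by 0.26 ± 0.06 and 0.23 ± 0.06. These calls ended under 4, 2 and 5 settings, that of DNAJB9 without drug replicate 3 (log2 0.23, adjusted p = 0.079) and without DMSO replicate 3 (adjusted p = 0.0881). Of the sensors and chaperones 3 rose without drug replicate 1 and 4 fell without drug replicate 3. Of 17 genes of ER-associated degradation none rose and 2 fell, ERLEC1 and EDEM3, both under an unstable call (lost under 10 and 9 settings, with an adjusted p of up to 0.0911 and 0.196 with 1 library left out).

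Immediate early genes, the transcripts switched on first after a stimulus, rose in many cases in vector cells. In methionase cells most were not called, but the called shares were 30.77% (AP-1 and ATF3) and 15.62% (the others), beside 7.93% of all genes. RHOB, an endosomal small GTPase, had 23955, 19637 and 24506 reads in methionase cells in DMSO and 17826, 24628 and 26184 with the drug, fully overlapping. In vector cells it went from a mean of 4395 to 66350, so methionase cells in DMSO already stood above vector cells in DMSO. The drug differences of -0.00 ± 0.13 and 3.90 ± 0.13 gave the largest difference of all genes tested, -3.90 ± 0.19 (adjusted p = 1.55e-12). Of the other genes with the largest negative differences, H2BC21 above was the only one called in methionase cells. JUN, a subunit of AP-1, had 0.04 ± 0.14 (difference -3.08 ± 0.20), the stress factor ATF3 0.50 ± 0.22 (-3.19 ± 0.31), the matrix protein gene CCN1 -0.50 ± 0.19 (-3.87 ± 0.27), the transcription factor KLF6 -0.04 ± 0.12 (-2.53 ± 0.17), the protease ADAMTS1 0.10 ± 0.16 (-2.50 ± 0.23) and the MAPK phosphatase DUSP1 0.37 ± 0.18 (-2.46 ± 0.26).

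The list of immediate early genes other than AP-1 leaves out the NR4A genes above and MYC below, all of which rose. Of its 32 tested members none rose and 5 fell in methionase cells (median -0.16). In vector cells 19 rose and 5 fell (median 0.40), beside 20.2% higher and 19.9% lower among all genes. The difference was called negative in 19, beside 11.9% of all genes, and positive in 1. The positive one was EGR1 (0.64 ± 0.17, adjusted p = 0.0811 with voom on the recovered reads). Without drug replicate 3, 9 fell and 1 rose in methionase cells, and 1 rose without drug replicate 1. EGR1, a zinc-finger factor, was itself not called in methionase cells at -0.37 ± 0.12. IER5 fell by 0.44 ± 0.07, KLF10 as given above, and NAB2, a corepressor of EGR factors, by 0.32 ± 0.07 (adjusted p = 0.0842 with the 6 libraries alone). The MAPK phosphatase genes DUSP10 and DUSP5, outside the naming rule, fell by 0.48 ± 0.11 and 0.38 ± 0.09 and rose in vector cells by 0.52 ± 0.11 and 1.54 ± 0.09 (differences -0.99 ± 0.15 and -1.92 ± 0.13). DUSP10 had an adjusted p of 0.0708 with the 6 libraries alone. DUSP5 lost its call under 4 settings, among them without DMSO replicate 1 (adjusted p = 0.0641) and without drug replicate 1 (adjusted p = 0.0682).

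AP-1 genes were divided. FOSB had 304, 354 and 255 reads in DMSO and 869, 528 and 463 with the drug, groups that did not overlap, and rose by 0.83 ± 0.15 (adjusted p = 0.000933), as in vector cells (0.92 ± 0.15, difference -0.09 ± 0.21, adjusted p = 0.81). FOSL2 rose by 0.54 ± 0.15, less than in vector cells by -0.80 ± 0.21 (adjusted p = 0.00716), and FOSL1 and MAFF fell by 0.36 ± 0.10 and 0.37 ± 0.11. The methionase calls of FOSL2, FOSL1 and MAFF ended under 7, 6 and 8 settings, with an adjusted p of up to 0.122, 0.155 and 0.1 with 1 library left out. The remaining 9 of 13 tested genes were not called (median of the list 0.13). Without drug replicate 3, 1 of the 13 rose and none fell.

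MYC, the growth-promoting transcription factor, had 4866, 4330 and 4333 reads in DMSO and 7460, 8067 and 7078 with the drug. The groups were well apart, and MYC rose by 0.73 ± 0.07 (adjusted p = 3.14e-07), less than in vector cells by -0.78 ± 0.10 (adjusted p = 5.40e-06). Of 10 genes of its network MGA, a repressor that competes for the same sites, fell by 0.33 ± 0.09, a call that ended under 6 settings (adjusted p of up to 0.119 with 1 library left out), and the other 8 were not called (median -0.02).

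Several brakes on the cell cycle fell. CDKN1A, the p53 target p21 that stops cyclin-dependent kinases, had 2216, 1943 and 2459 reads in DMSO and 1575, 1426 and 1250 with the drug, groups apart, and fell by 0.61 ± 0.08 (adjusted p = 4.19e-05). It rose in vector cells by 0.24 ± 0.08, a difference of -0.85 ± 0.11 (adjusted p = 1.35e-05). GADD45B, a stress-induced growth arrest gene, had 337, 360 and 285 reads in DMSO and 178, 244 and 221 with the drug, and fell by 0.48 ± 0.09 (adjusted p = 0.00214) while it rose in vector cells by 1.37 ± 0.09 (difference -1.85 ± 0.13). Its relative GADD45A was not called (-0.17 ± 0.13) and rose in vector cells by 1.79 ± 0.13 (difference -1.96 ± 0.18). Of 21 tested CDK inhibitors and p53 targets none rose and 7 fell (33.33% called, beside 7.93% of all genes, median -0.17). In vector cells 11 rose and 4 fell (median 0.24), beside 20.2% higher and 19.9% lower among all genes. In 8 members the difference was called negative, beside 11.9% of all genes, and in none positive. Without DMSO replicate 3, as with the 6 libraries alone, 2 of the list fell, and 4 without drug replicate 2.

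Regulators of cell death showed both signs. Of 16 tested genes of the BCL2 family 1 rose and 4 fell (31.25% called, beside 7.93% of all genes, median -0.08). Without DMSO replicate 1, 2 of the family fell. BBC3, the p53 target PUMA, had 585, 496 and 626 reads in DMSO and 337, 370 and 402 with the drug, groups that did not overlap, and fell by 0.53 ± 0.11 (adjusted p = 0.00275), whereas it rose in vector cells by 0.46 ± 0.11 (difference -0.98 ± 0.15). BMF fell in both kinds of cell, as given above, and less in methionase cells by 0.38 ± 0.12 (adjusted p = 0.0291, a call that ended under 7 of 21 settings, with an adjusted p of up to 0.184). The death inhibitor BCL2 and the BH3-only gene HRK, the latter outside the naming rule, fell by 0.39 ± 0.10 and 0.36 ± 0.09, each with a call that ended under 4 settings (adjusted p of up to 0.078 and 0.101 with 1 library left out). PMAIP1, the BH3-only gene NOXA, rose by 0.53 ± 0.14 with overlapping groups, and much less than in vector cells (1.92 ± 0.14, difference -1.39 ± 0.20, adjusted p = 2.27e-05). Its rise was 0.31 without drug replicate 3 (adjusted p = 0.107), and the call ended under 6 settings in all.

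Of 47 tested genes of G1/S and DNA replication 3 rose and 9 fell (25.53% called, beside 7.93% of all genes, median -0.04). E2F2, a transcription factor of S phase entry, fell by 0.49 ± 0.07, GINS1 of the replicative helicase by 0.41 ± 0.07 and cyclin D1 (CCND1) fell by 0.52 ± 0.09, each under all 15 other settings. CCND1 fell less than in vector cells by 0.55 ± 0.13 (adjusted p = 0.00389). CDC6, FEN1 and PCNA, outside the naming rule, fell by 0.32 ± 0.06, 0.48 ± 0.09 and 0.26 ± 0.06. CDC6 had an adjusted p of 0.0734 with the 6 libraries alone, and PCNA lost its call under 3 settings (adjusted p of up to 0.0523 with 1 library left out). GINS4, POLA1 and MCM5 rose by 0.23 ± 0.07, 0.21 ± 0.06 and 0.18 ± 0.05, calls that ended under 7, 7 and 10 settings, with an adjusted p of up to 0.166, 0.206 and 0.142 with 1 library left out. POLA1 was at 0.13 without DMSO replicate 3, and none of the list rose there or without drug replicate 1. Of 30 genes of G2/M and mitosis the kinase CDK1 fell (-0.25 ± 0.06), a call that ended without DMSO replicate 2 (adjusted p = 0.0541) and with the 6 libraries alone (adjusted p = 0.162), and none rose (median -0.08), while 5 fell without drug replicate 1 and 3 without drug replicate 2.

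Nutrient and stress pathways had group medians near 0, though some lists held more called genes than the share of all genes. Of 23 genes of the integrated stress response 3 rose and 1 fell (17.39% called, beside 7.93% of all genes, median 0.00). DDIT3, the stress factor CHOP, had 902, 816 and 694 reads in DMSO and 863, 1581 and 1809 with the drug, overlapping groups, and rose by 0.70 ± 0.20, much less than in vector cells (1.90 ± 0.20, difference -1.19 ± 0.28, adjusted p = 0.00339). PPP1R15A, which reverses the response, rose by 0.49 ± 0.14 against 1.92 ± 0.14 (difference -1.44 ± 0.19), and ATF4, its central factor, by 0.30 ± 0.09. All 3 calls ended under 7 settings, with an adjusted p of up to 0.135, 0.134 and 0.12 with 1 library left out. Of this list 5 rose without drug replicate 1 and none without DMSO replicate 3, drug replicate 2 or drug replicate 3. The lipoprotein receptor VLDLR fell by 0.42 ± 0.09. None of 18 amino acid transporters (median 0.08), of 20 aminoacyl-tRNA synthetases (median 0.05) or of 11 DNA methylation and TET enzymes (median 0.03) was called, and of 18 genes of serine, asparagine and folate metabolism GPT2 rose (0.32 ± 0.10, lost under 8 settings, with an adjusted p of up to 0.151 with 1 library left out). In 7 of the 18 amino acid transporters the drug difference was higher than in vector cells, for example in the cystine transporter SLC7A11 (0.23 ± 0.12 against -0.69 ± 0.12, difference 0.92 ± 0.17), chosen after its values were seen.

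Of 13 tested genes of the methionine cycle 1 was called, AHCYL1, a relative of the hydrolase that recycles homocysteine (-0.18 ± 0.05, lost under 9 settings, with an adjusted p of up to 0.0857 with 1 library left out; median of the list -0.09). MAT2A, which makes S-adenosylmethionine, had 2946, 4811 and 5309 reads in DMSO and 4257, 3283 and 3691 with the drug, overlapping groups with a log2 difference of -0.18 ± 0.17. In vector cells MAT2A fell by 1.27 ± 0.17, a difference of 1.09 ± 0.24 (adjusted p = 0.00221). Methionine synthase MTR likewise had -0.13 ± 0.07 in methionase cells and fell by 0.73 ± 0.07 in vector cells (difference 0.60 ± 0.10). Both were chosen after their values were seen. Of 17 genes of polyamines and methionine salvage 2 rose and 2 fell (23.53% called, beside 7.93% of all genes, median 0.05). AMD1, which commits S-adenosylmethionine to polyamines, had 2558, 2670 and 2584 reads in DMSO and 1847, 1862 and 2009 with the drug, and fell by 0.43 ± 0.07 (adjusted p = 0.000189) in a call kept under all 15 other settings. ODC1, which makes putrescine, and ADI1 of methionine salvage rose by 0.30 ± 0.08 and 0.28 ± 0.08, and the antizyme OAZ2 fell by 0.23 ± 0.07, calls that ended under 7, 10 and 12 settings (adjusted p of up to 0.12, 0.152 and 0.178 with 1 library left out). Of 21 sestrins and amino acid sensors of mTORC1 none rose and 2 fell (median 0.05): SESN3 by 0.47 ± 0.07, unlike in vector cells (-0.03 ± 0.07, difference -0.43 ± 0.10), and SESN1 by 0.28 ± 0.07 (lost under 3 settings, with an adjusted p of up to 0.0834 with 1 library left out).

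Genes of glucose use and the hypoxia response were called in methionase cells about as often as all genes (7.895% beside 7.93%). Of 38 tested genes 3 fell and none rose (median -0.03). In vector cells 17 fell and 2 rose (median -0.19), beside 19.9% lower and 20.2% higher among all genes. In 11 the drug difference was called higher in methionase cells, beside 9.92% of all genes, and in none lower. PDK3, a pyruvate dehydrogenase kinase, fell by 0.45 ± 0.08, beside EGLN3 above. The vessel-relaxing peptide gene ADM fell by 0.45 ± 0.10 (adjusted p = 0.0681 with the 6 libraries alone). The glucose transporter SLC2A3 had 297, 229 and 213 reads in DMSO and 184, 279 and 288 with the drug, overlapping, and 0.01 ± 0.15 on the log2 scale. In vector cells it fell by 1.40 ± 0.15 from a higher start of 764.7 reads, and the difference of 1.41 ± 0.21 was the largest positive one of all genes tested (adjusted p = 4.40e-05). PFKFB4, a regulator of glycolysis chosen after its values were seen, likewise had 0.10 ± 0.10 in methionase cells and fell by 0.97 ± 0.10 in vector cells (difference 1.07 ± 0.14).

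Other large positive differences came from genes that fell strongly in vector cells. RBM12, an RNA-binding protein gene, fell in both, by 0.60 ± 0.07 in methionase cells (1226, 1299 and 1326 reads in DMSO, 804, 870 and 778 with the drug) and fell by 1.94 ± 0.07 in vector cells, a difference of 1.33 ± 0.09 (adjusted p = 8.67e-10). Its annotation overlaps CPNE1 on the same strand, so the reads of these genes are uncertain. The others were the mitochondrial cytochrome b gene CYTB (0.35 ± 0.24, difference 1.32 ± 0.33), the nuclear receptor coactivator NCOA5 (0.16 ± 0.09, difference 1.21 ± 0.12), the matrix protein gene EMILIN3 (-0.01 ± 0.09, difference 1.20 ± 0.13), ZNF587B (0.05 ± 0.08, difference 1.16 ± 0.11) and FASTKD5, which matures mitochondrial RNA (-0.27 ± 0.08, difference 1.12 ± 0.11). Of these 5 only FASTKD5 was called in methionase cells, under a call that ended in 7 of the 15 settings (adjusted p of up to 0.0891 with 1 library left out). EMILIN3, ZNF587B and FASTKD5 overlap other genes as well.

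A few proteasome genes rose slightly. Of 30 tested proteasome subunits 5 rose and 1 fell (median 0.13). With 1 library left out between 3 and 8 rose, 8 without DMSO replicate 1 or drug replicate 1 and 3 without DMSO replicate 3, drug replicate 2 or drug replicate 3. The ATPase subunit PSMC5, which overlaps FTSJ3 on the other strand, had 3050, 2772 and 2727 reads in DMSO and 3501, 3453 and 3583 with the drug, and rose by 0.29 ± 0.06. PSMC4 rose by 0.27 ± 0.05, unlike in vector cells (-0.07 ± 0.05, difference 0.33 ± 0.08, adjusted p = 0.00233), and PSMD6 by 0.29 ± 0.06, while PSMD12 fell by 0.27 ± 0.06. With the 6 libraries alone these 4 had adjusted p of 0.0867, 0.113, 0.0873 and 0.109, and none of the list was called. PSMD4 and PSMD13, outside the naming rule, rose by 0.22 ± 0.06 and 0.22 ± 0.07, calls that each ended under 8 settings (adjusted p of up to 0.0904 and 0.196 with 1 library left out). Of 78 cytosolic ribosomal protein genes 73 had a positive difference (median 0.12), but only RPL10A (0.22 ± 0.06) and RPLP2 (0.27 ± 0.08) were called, a share of 2.564% beside 2.95% higher among all genes, and under 8 and 11 settings no longer (adjusted p of up to 0.0962 and 0.121 with 1 library left out). Their median was 0.03 with quantile normalization.

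Of 14 noncoding hosts of small nucleolar RNAs 3 rose and none fell (21.43% called, beside 7.93% of all genes, median 0.24). Without DMSO replicate 2 or drug replicate 1, 5 rose. SNHG15 had 1325, 1554 and 1292 reads in DMSO and 1608, 2144 and 2275 with the drug and rose by 0.49 ± 0.09, SNHG7 rose by 0.39 ± 0.07 and EPB41L4A-AS1 by 0.38 ± 0.10 (lost under 3 settings, with an adjusted p of up to 0.0714 with 1 library left out). The mitochondrial ribosomal RNAs RNR1 and RNR2 rose by 0.66 ± 0.15 and 0.65 ± 0.20. RNR1 lost its call with quantile normalization (adjusted p = 0.0558), and RNR2, whose groups overlapped, under 10 settings, with a value of 0.35 without DMSO replicate 1 (adjusted p = 0.244). None of 13 mitochondrial messenger RNAs was called (median 0.25). Their share of reads was 2.11%, 4.61% and 3.958% in DMSO and 3.803%, 4.037% and 4.345% with the drug (exact permutation p = 0.8), with DMSO replicate 1 alone low.

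**Figure D5:**
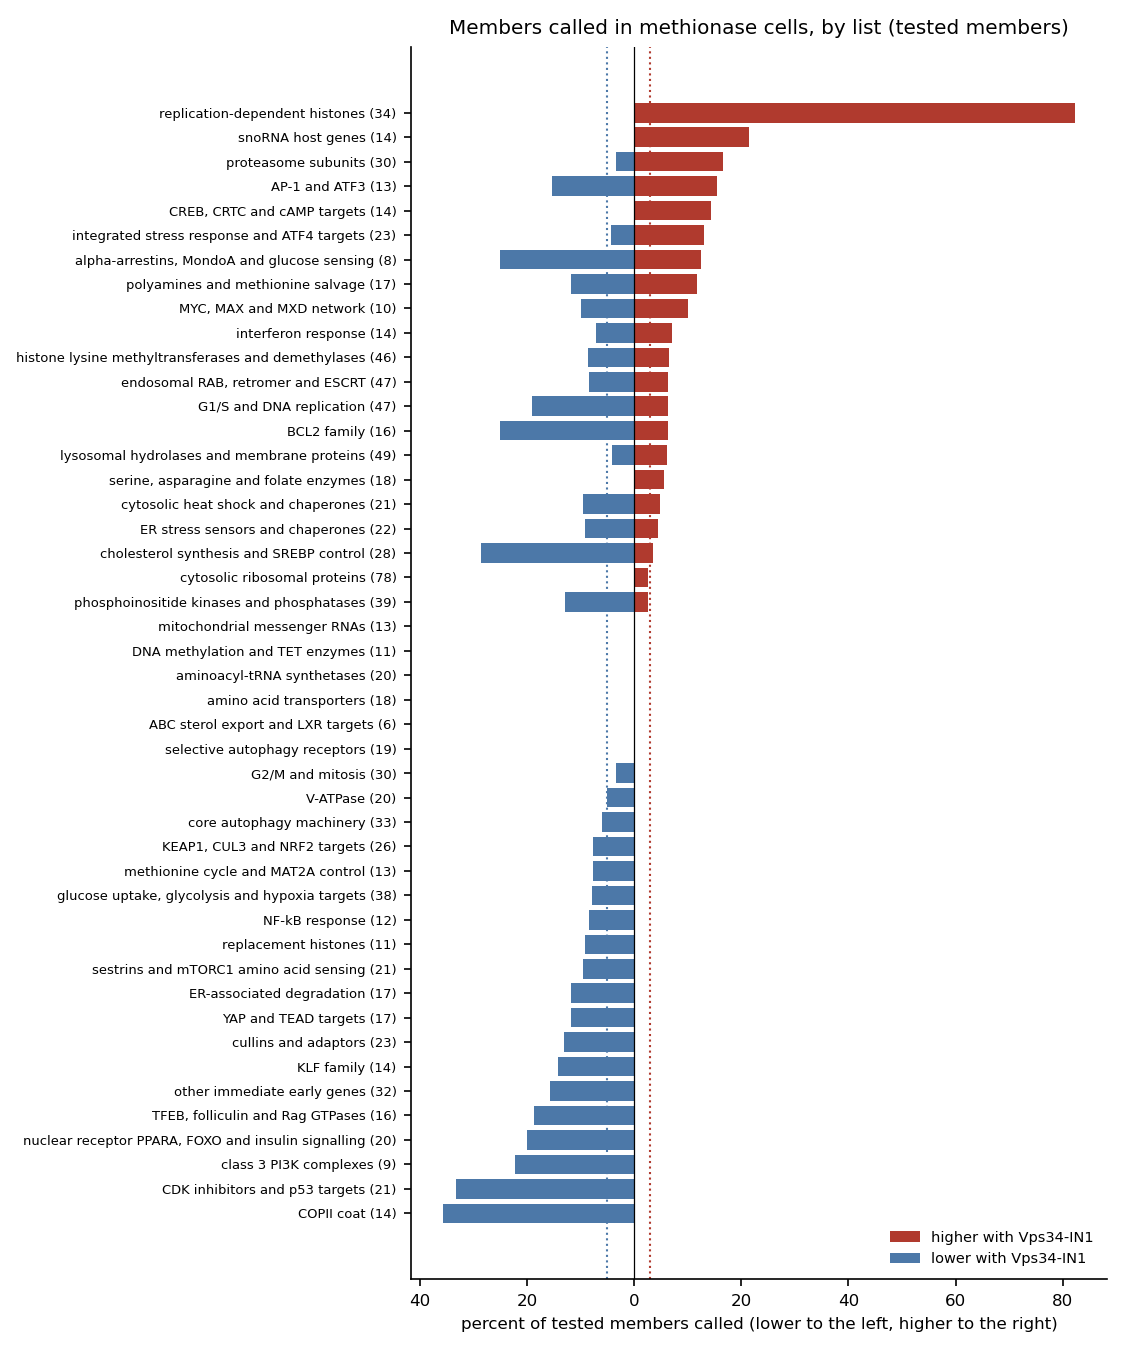
Percent of the tested members of 46 gene lists that fell (blue, to the left) or rose (red, to the right) with Vps34-IN1 in methionase cells, with the number of tested members in brackets and dotted lines at the shares of all genes (4.98% lower and 2.95% higher). Replication-dependent histones stand out to the right at 82.35%, and the COPII coat, the CDK inhibitors and p53 targets, and cholesterol synthesis reach furthest to the left.

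The remaining lists are given for completeness. Of 23 cullins and adaptors 3 fell, CUL3, CUL5 (-0.39 ± 0.06, kept under all settings) and CUL7 (-0.21 ± 0.06, lost under 6 settings, with an adjusted p of up to 0.118 with 1 library left out), and of 26 genes of KEAP1, CUL3 and NRF2 targets CUL3 and the iron exporter SLC40A1 (-0.34 ± 0.09, lost under 7, with an adjusted p of up to 0.105 with 1 library left out) fell. None of either list rose, with medians of -0.05 and -0.01. Of 14 KLF genes KLF10 and KLF11 (-0.40 ± 0.09, adjusted p = 0.0556 without DMSO replicate 3) fell and none rose, with a median of -0.12. Of 46 histone lysine methyltransferases and demethylases 3 rose and 4 fell (median -0.03), led by KMT5B (-0.30 ± 0.06), KDM2A (-0.28 ± 0.07) and SMYD2 (0.27 ± 0.07), with adjusted p of 0.0995, 0.142 and 0.168 with the 6 libraries alone. Without DMSO replicate 3, KDM2A had an adjusted p of 0.0521 and SMYD2 one of 0.0813. The other 4 called, SETDB1 and RIOX2 higher and KDM5B and SUV39H1 lower, lost their calls under 6, 6, 8 and 10 settings. Of 20 genes of PPARA, FOXO and insulin signalling 4 fell (median -0.10), the fatty acid receptor PPARA (-0.40 ± 0.08, adjusted p = 0.0538 with the 6 libraries alone) and, under calls lost in 9 to 11 settings, PDK4, IRS1 and INSR. Of 17 YAP and TEAD targets AMOTL2 (-0.28 ± 0.07) and CCN2 (-0.46 ± 0.14) fell (median -0.12), lost under 3 and 11 settings. Of 21 tested heat shock genes HSPH1 rose and BAG3 and DNAJA1 fell (median -0.02), lost under 6, 3 and 10 settings. Of 12 genes of the NF-kB response TNFAIP3 fell (-0.34 ± 0.08, median -0.13, lost under 3 settings), and of 14 interferon genes ISG15 rose (0.42 ± 0.09, kept under all settings) and IFIT1 fell (median -0.06, lost under 9 settings). Among the 8 HEK293 markers NPTX1 fell (-0.37 ± 0.07). Single libraries moved these small counts. Without drug replicate 3, 4 genes of the KEAP1 and NRF2 list, 4 KLF genes, 4 YAP and TEAD targets and 3 NF-kB genes fell. Without DMSO replicate 3, none of the histone methyltransferases and demethylases rose and 1 fell. Without drug replicate 1, 5 heat shock genes fell, and without DMSO replicate 1 or drug replicate 2, 1 gene of PPARA, FOXO and insulin signalling fell.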

How the data were processed

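The deposited table holds log2 expression values, made by the authors with a variance-stabilising transformation of gene counts (read from the values), for 37096 named genes in 18 libraries. One further line names no gene. The authors used the hg38 build with DESeq2, featureCounts, limma and STAR 2.7.10b, per the submitters' processing notes, which give no order. The annotation and strand setting are not given in the sources used here. Inverting the transformation gave whole reads within 0.01 for 100.0% of values, and size factors of 0.8923 to 0.9849 in the 6 libraries. Differences on this scale understate the fold change of genes with few reads.

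limma 3.58.1 in R 4.3.3 was fitted to the log2 values of all 18 libraries, with 1 mean per group and a variance trend, for the 17755 genes with a mean at least 0.5 above the lowest value (5.45). Its p-values were adjusted by Benjamini-Hochberg over these genes, and every adjusted p in the text comes from limma. The fit was tested on simulated data. The 3 contrasts were the drug in methionase cells, the drug in vector cells, and their difference.

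The genes named were the 15 largest increases and 15 largest decreases with groups that did not overlap, the 3 called members of each of 50 lists with the lowest adjusted p and any called member against its list's majority, all members of 3 lists, and the 8 largest differences each way. Some genes that this rule names are not reported here. Genes said to lie outside this naming rule, with ATF4, EOLA2, RRAGA and other members that fill up a list's count, were named after their values were seen. The members and lists were chosen with earlier results of these data known. Alternatives were quantile normalization, equal library medians, 2 other filters, array quality weights, no variance trend, voom on recovered reads, a replicate block, only the groups compared, and each library left out.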

Additional observations from a re-analysis of the deposited data

Results flagged for a closer look

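The drug difference in methionase cells was compared with that in vector cells by the test of the difference itself (limma, adjusted over 17755 genes), and the genes below, of those described above, passed it. Values are the methionase minus the vector drug difference on the log2 scale, with 3 libraries in each of 4 groups. The cause of these differences was not tested.

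Among immediate early and stress genes the difference was -3.90 for RHOB, -3.87 for CCN1, -3.19 for ATF3, -3.08 for JUN, -2.53 for KLF6, -2.50 for ADAMTS1, -2.46 for DUSP1, -1.96 for GADD45A, -1.92 for DUSP5, -1.85 for GADD45B, -1.52 for NR4A1, -1.44 for PPP1R15A, -1.39 for PMAIP1, -1.36 for TNFRSF12A, -1.19 for DDIT3, -0.99 for DUSP10, -0.98 for BBC3, -0.85 for CDKN1A, -0.82 for DEPP1, -0.80 for FOSL2, -0.78 for MYC and -0.72 for NR4A3. It was positive for EGR1 at 0.64.

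Histone genes had -2.78 (H2BC21), -1.77 (H1-2), -1.42 (H2AC6), -0.99 (H2BC5), -0.85 (H2BC11) and -0.52 (H2BC12). Sterol genes had -1.68 (IDI1), -1.42 (HMGCS1), -1.32 (INSIG1), -1.16 (MSMO1) and -1.12 (SQLE). COPII genes had -1.17 (SEC24D), -0.77 (SEC24B), -0.72 (SEC24A) and -0.47 (SAR1A).

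Genes of the class 3 PI3K complexes had -0.44 (RUBCN), -0.44 (ATG14), -0.43 (UVRAG), -0.35 (AMBRA1), -0.35 (PIK3R4) and 0.46 (PIK3C3), and PIK3CA had -0.71. The remaining negative values were -1.14 (TXNIP), -0.43 (MTRFR), -0.43 (SESN3), -0.42 (GLA) and -0.41 (CTSB).

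The positive values were 1.41 for SLC2A3, 1.33 for RBM12, 1.32 for CYTB, 1.21 for NCOA5, 1.20 for EMILIN3, 1.16 for ZNF587B, 1.12 for FASTKD5, 1.11 for EOLA1, 1.09 for MAT2A, 1.07 for PFKFB4, 0.92 for SLC7A11, 0.60 for MTR, 0.55 for CCND1, 0.38 for BMF and 0.33 for PSMC4.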

How the results depend on the processing

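In methionase cells, 1408 calls became 625 with array quality weights and 296 when only the groups compared were fitted. With 1 library left out they ranged from 860 (without DMSO replicate 3) to 1526. Calls in vector cells and of the difference stayed within 1.5 times their main count. Deviations of same-numbered libraries had correlations of -0.236, -0.295 and -0.196 in methionase cells and 0.124, -0.303 and 0.134 in vector cells. With 3 libraries per group these values cannot settle whether the numbers mark pairs. The replicate block gave 1387 calls. The drug minus DMSO share of mitochondrial messenger RNA was 0.5024 percentage points and ranged from -0.2223 (without DMSO replicate 1) to 1.028. Of 65 called differences reported in the text 61 were kept under every setting. Differences of other named genes were not followed across settings. NR4A3, BMF, GLA and EGR1 were the exceptions. No named gene reversed. Fewer reads limit histone genes below the filter, which were not tested.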
